A study of Rattus norvegicus with 16 samples.

Results

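The expression of *Cdh16*, *Cdh1*, *Cdh2*, *Cdh13*, *Cdh17*, *Cdh22*, *Ncam1*, *Ctnnb1*, *Ctnnd1* and *Epcam*, which encode cadherins, adhesion molecules of other families and catenins, was measured in PCCl3 cells depleted of the transcription factor Pax8. PCCl3 is a differentiated follicular cell line derived from the rat thyroid. The members were the array probes whose RefSeq accession resolved to one of these 10 symbols. Probes were found for 9 of the 10 genes, 14 probes of the 41012 tested, and no probe resolved to *Ctnnd1*. All cells were kept in medium with 1 nM TSH. One group received an siRNA against *Pax8* at 10 ng/ml with a lipofectamine reagent (si*Pax8*). Another received a scrambled siRNA at the same dose (siScramble). The remaining group is labelled wild type (wt), and the study's methods and supplements differ on whether it was treated with lipofectamine alone or not at all. RNA of si*Pax8* cells was hybridized together with RNA of wt cells on 8 two-colour arrays and with RNA of siScramble cells on another 8, with 4 biological replicates in each comparison and both dye orientations for each replicate. By the study's design both comparisons drew on one set of si*Pax8* samples, so the comparisons are not independent. All cells come from 1 line and were assayed as bulk RNA, in which fewer cells of a kind and less RNA per cell cannot be told apart.

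Classical cadherins such as E-cadherin (Cdh1) and N-cadherin (Cdh2) hold neighbouring cells together by calcium-dependent binding outside the cell, and are anchored to actin inside it through β-catenin (Ctnnb1), p120-catenin (Ctnnd1) and α-catenin. *Cdh16* encodes Ksp-cadherin, a member with a short cytoplasmic tail that is abundant in kidney and thyroid epithelium. Ncam1 is an adhesion molecule of the immunoglobulin family, and Epcam is an epithelial surface protein. Thyroid follicular cells are polarized epithelium that relies on such contacts to enclose the follicle. Pax8 is a paired-domain factor required for the differentiation of these cells.

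Values are log2 ratios of si*Pax8* over the control on the same arrays, averaged over dye orientations, with the SD over 4 replicates, and a probe was past the threshold when its adjusted p in limma was under 0.005. Levels are log2 intensities after normalization, and are compared only between cell groups for the same probe. In each channel 52% to 60.8% of an array's spots exceeded background clearly. The targeted gene was reduced relative to wt cells, with a log2 ratio of -0.56 ± 0.24 for the *Pax8* probe A_43_P12538 (-0.84, -0.57, -0.59 and -0.26 in replicates 1 to 4; adjusted p = 0.000472). A negative sign means lower in si*Pax8* by the dye labels. Relative to siScramble cells the *Pax8* ratio was -0.25 ± 0.25 (-0.58, -0.29, -0.12 and -0.01) and did not pass (adjusted p = 0.143). Of 11 measured follicular cell markers, each above background in every reading of the wt arrays, 9 were lower and 1, *Slc26a4*, higher than in wt cells. *Pax8* itself is among the 11 and among the 9. The thyroglobulin gene *Tg* was the 1 marker lower than in siScramble cells. Of 8899 named genes, 9.46% were lower and 7.26% higher than in wt cells, and 1.31% were lower than in siScramble cells. The summed level of the follicular markers, *Pax8* included, was 16.92 to 17.02 in si*Pax8* cells against 17.57 to 17.66 in wt cells, and 17.02 to 17.04 against 17.23 to 17.47 in siScramble cells.

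Relative to wt cells, *Cdh1*, *Cdh2*, *Ncam1* and *Epcam* were higher and both *Cdh16* probes were lower in si*Pax8* cells. That is 6 of 14 member probes (42.9%), where 15.3% of all probes passed, 7.04% higher and 8.23% lower. Relative to siScramble cells, 1 *Cdh16* probe was lower and *Ncam1* was higher, 2 of 14 probes (14.3%), where 2.11% of all probes passed, 1.22% higher and 0.897% lower. These are 499 higher and 368 lower probes, a split that was 418 and 179 with loess or Aquantile in place of quantile normalization. The median log2 ratio of the member probes was 0.05 against wt and -0.01 against siScramble cells, and that of all probes was 0 in both. At an unadjusted p under 0.05 in limma, 8 and 4 member probes passed. The share of all probes at that cut-off was not taken, so these counts have no background. The difference between the comparisons was itself past the threshold for 3 member probes (21.4%), *Cdh1* and both of *Cdh16*, where 3.44% of all probes passed, 1.65% higher and 1.78% lower. Without replicate 3 or replicate 4, 2 rather than 4 member probes were higher than in wt cells.

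**Figure D1:**
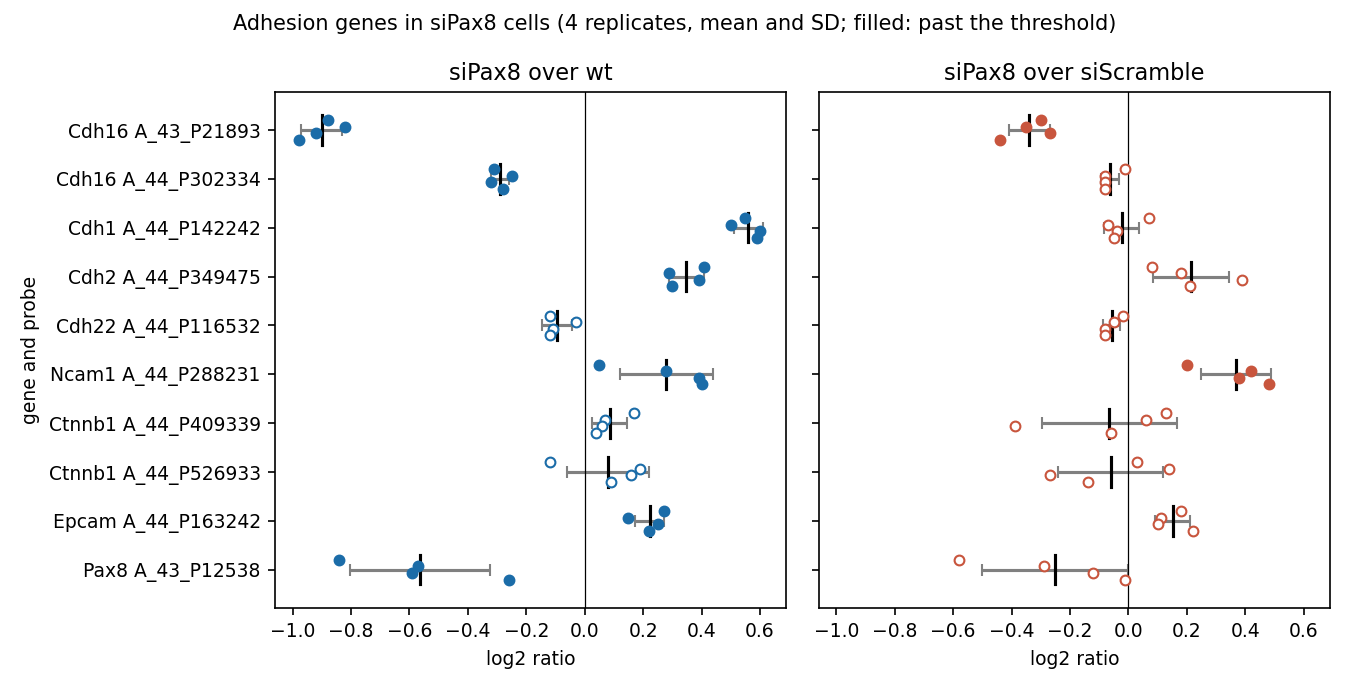
Log2 ratio of si*Pax8* over wt (left) and over siScramble cells (right) for the 9 member probes above background in any reading and for *Pax8*; points are the 4 replicates from top to bottom, the black line is their mean and the grey bar 1 SD. Filled points mark probes past the threshold: 6 member probes and *Pax8* against wt cells, and *Cdh16* A_43_P21893 and *Ncam1* against siScramble cells.

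*Cdh16* was read by 2 probes of different brightness. The brighter, A_43_P21893 (NM_001012055), had levels of 9.29, 9.19, 9.30 and 9.23 in wt cells and of 8.41, 8.37, 8.37 and 8.25 in si*Pax8* cells of the same replicates. Every si*Pax8* replicate was below every wt replicate, a separation seen for 13.3% of all probes in this comparison. The log2 ratio was -0.90 ± 0.07 (-0.88, -0.82, -0.92 and -0.98; adjusted p = 3.53e-07), or 53.5% of the wt level, and it was negative on 8 of 8 arrays.

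On the siScramble arrays the same probe gave levels of 8.69, 8.75, 8.63 and 8.70 in siScramble cells and 8.39, 8.40, 8.36 and 8.26 in si*Pax8* cells. Every si*Pax8* replicate was below every siScramble replicate, a separation seen for 6.16% of all probes. The log2 ratio was -0.34 ± 0.07 (-0.30, -0.35, -0.27 and -0.44; adjusted p = 0.00198), or 79.1% of the siScramble level, again negative on 8 of 8 arrays. This call was lost when any 1 replicate was left out, with adjusted p of 0.00518 to 0.0209 and ratios of -0.36 to -0.31. The decrease against wt cells stayed past the threshold in all 16 alternative settings, with ratios of -1.14 to -0.72. The size depended on the dye: with si*Pax8* RNA in Cy5 the ratio was -0.72 against wt and -0.17 against siScramble cells, and with si*Pax8* in Cy3 -1.09 and -0.50.

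The dimmer *Cdh16* probe, A_44_P302334, was above background in 30 of 32 channel readings. Its levels were 7.10, 6.97, 7.08 and 7.01 in wt cells and 6.78, 6.72, 6.76 and 6.73 in si*Pax8* cells. These again did not overlap, as for 13.3% of all probes. Its log2 ratio was -0.29 ± 0.03 (adjusted p = 9.54e-05), so that both probes were lower but by unequal amounts. Relative to siScramble cells it was -0.06 ± 0.03 (-0.01, -0.08, -0.08 and -0.08), with an interval of -0.12 to 0.00, and did not pass (adjusted p = 0.248). With the background that Agilent's software subtracts, the probes came close together, at -1.14 and -1.06 against wt and -0.46 and -0.39 against siScramble cells, so the gap between them was not seen with that correction.

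The oligonucleotides with which the study read *Cdh16* outside the arrays are shown because they define the transcript and the bound region that it followed for this gene. They are the primer pair for its mRNA in qRT-PCR and the pair for the sequence assigned to *Cdh16* in Pax8 immunoprecipitates. Each has 20 bases and is written 5′ to 3′, with no base singled out. The measurements made with them were not analysed here.
Cdh16 qRT-PCR forward: ctggcagcgataggtttcat
Cdh16 qRT-PCR reverse: gatcagatggagctggggta
Cdh16 ChIP forward: gggcagtgacagaccaagat
Cdh16 ChIP reverse: ttcaggaagctctggcaaat

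*Cdh1*, which encodes E-cadherin, the main classical cadherin of epithelia, moved opposite to *Cdh16* relative to wt cells. Probe A_44_P142242 had levels of 8.79, 8.73, 8.71 and 8.69 in wt cells and 9.34, 9.23, 9.31 and 9.28 in si*Pax8* cells. All si*Pax8* values were above all wt values, as for 11% of all probes. The log2 ratio was 0.56 ± 0.05 (0.55, 0.50, 0.60 and 0.59; adjusted p = 2.99e-06), or 147% of the wt level, positive on 8 of 8 arrays and between 0.53 and 0.60 on each of the 4 slides. It was past the threshold in all 16 alternatives.

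Relative to siScramble cells the *Cdh1* levels interleaved, at 9.32, 9.31, 9.32 and 9.36 in siScramble and 9.39, 9.24, 9.28 and 9.30 in si*Pax8* cells. The log2 ratio was -0.02 ± 0.06 (0.07, -0.07, -0.04 and -0.05; adjusted p = 0.777), with an interval of -0.10 to 0.05. Thus siScramble and si*Pax8* cells both lay above wt cells for *Cdh1*. The order of the groups, from low to high, was wt and then siScramble and si*Pax8* cells, of which the last 2 did not separate beyond their spread.

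The 2 comparisons differed for *Cdh1* and *Cdh16*. The ratio against wt exceeded that against siScramble cells by 0.58 for *Cdh1* (interval 0.49 to 0.68; adjusted p = 1.83e-05). For *Cdh16* it was lower by a log2 difference of -0.56 at A_43_P21893 (interval -0.67 to -0.46; adjusted p = 6.23e-05) and of -0.23 at A_44_P302334 (interval -0.31 to -0.15; adjusted p = 0.00223). This test took the 8 ratios as separate values although the comparisons share si*Pax8* samples. With the replicate number as a block, which pairs them, the adjusted p were 2.3e-05, 3.04e-05 and 0.00424, and the difference of -0.32 for *Pax8* itself went from 0.183 to 0.00171. Because si*Pax8* is the numerator in both, these differences equal siScramble over wt, 2 groups that were not hybridized together. For *Cdh16* the order was wt, siScramble and si*Pax8* cells from high to low, separated at each step at the brighter probe. For the dimmer probe the call of a difference was lost when any 1 replicate was left out (adjusted p 0.0126 to 0.0275).

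**Figure D2:**
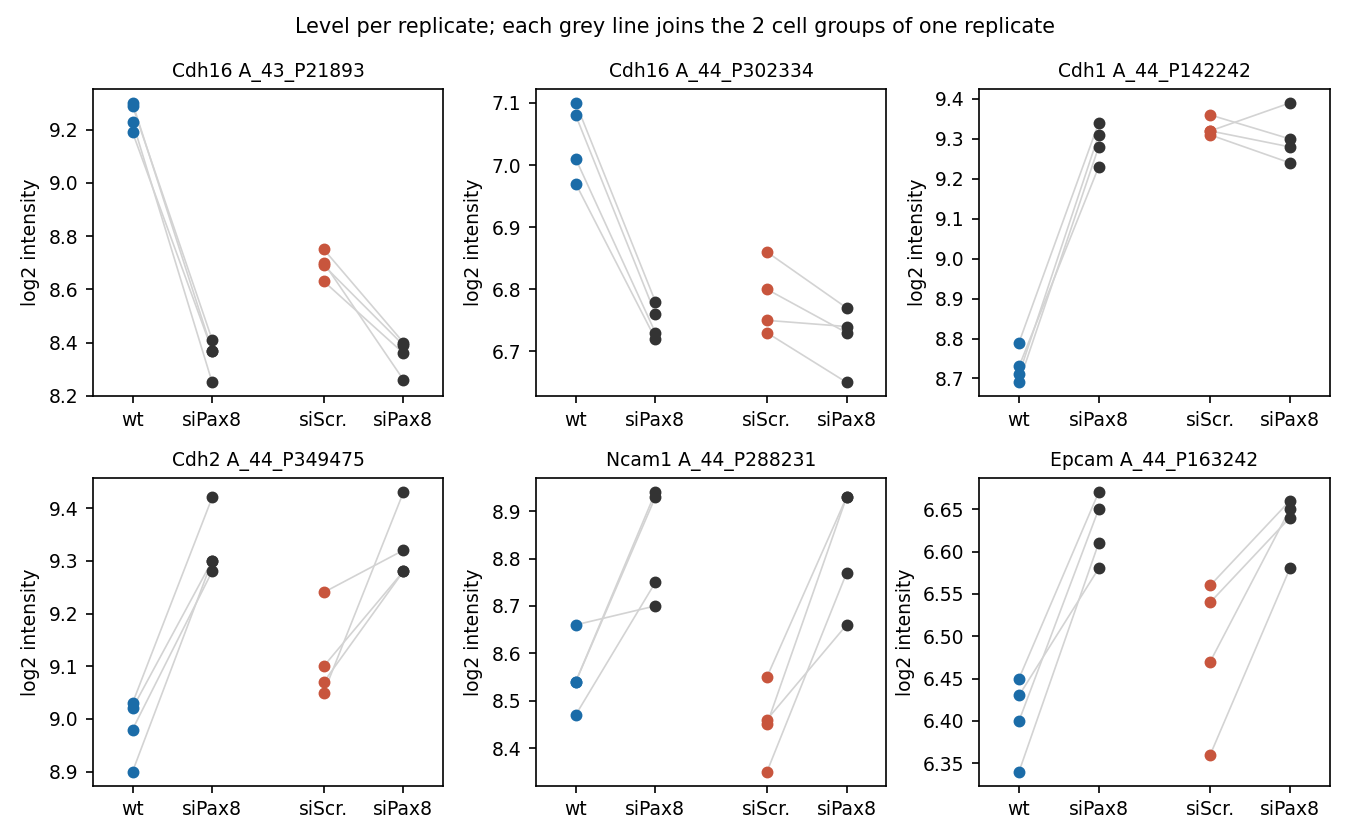
Level (log2 intensity after normalization, one scale per panel) of 6 member probes in wt, si*Pax8* and siScramble (siScr.) cells; each point is a replicate and each grey line joins the groups hybridized together. At *Cdh16* A_43_P21893 the siScramble points (8.63 to 8.75) lie between wt and si*Pax8*, and at *Cdh1* they lie with si*Pax8*, above the wt points (8.69 to 8.79).

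*Cdh2* encodes N-cadherin, the classical cadherin best known from neurons and mesenchymal cells. Its probe A_44_P349475 was spotted 10 times on each array. Its levels were 8.90, 9.02, 9.03 and 8.98 in wt cells and 9.30, 9.30, 9.42 and 9.28 in si*Pax8* cells. The log2 ratio was 0.35 ± 0.06 (0.41, 0.29, 0.39 and 0.30; adjusted p = 7.13e-05), and 80 of 80 spot values were positive. Spots on the same array are not independent readings. This call was lost with si*Pax8* in Cy3 alone (0.22; adjusted p = 0.0278) and with the values of Agilent's software (0.43; adjusted p = 0.00623). Relative to siScramble cells, with levels of 9.24, 9.1, 9.05 and 9.07 against 9.32, 9.28, 9.43 and 9.28, the ratio was 0.21 ± 0.13 (0.08, 0.18, 0.39 and 0.21). All si*Pax8* levels were above all siScramble levels, as for 4.83% of all probes, but the ratio did not pass (adjusted p = 0.039). It was 0.39 with si*Pax8* in Cy5 and 0.04 with si*Pax8* in Cy3, and 67 of 80 spot values were positive. The 2 comparisons differed by 0.13, with an interval of 0.00 to 0.27, which did not pass either (adjusted p = 0.242).

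*Ncam1* encodes the neural cell adhesion molecule, which binds to itself on the neighbouring cell and is also found in endocrine cells. It was the only member gene for which every probe was past the threshold in both comparisons. It was read by 1 probe, however, and the brighter *Cdh16* probe also passed in both. The *Ncam1* probe A_44_P288231, also with 10 spots, had levels of 8.66, 8.47, 8.54 and 8.54 in wt cells and 8.70, 8.75, 8.93 and 8.94 in si*Pax8* cells. The log2 ratio was 0.28 ± 0.16 (0.05, 0.28, 0.39 and 0.40; adjusted p = 0.00477). The small value of replicate 1 averages arrays of opposite sign, 0.31 with si*Pax8* in Cy5 and -0.22 with si*Pax8* in Cy3. Without replicate 1 the ratio was 0.36. On the siScramble arrays the levels were 8.46, 8.35, 8.55 and 8.45 in siScramble and 8.66, 8.77, 8.93 and 8.93 in si*Pax8* cells, with a ratio of 0.37 ± 0.12 (0.20, 0.42, 0.38 and 0.48; adjusted p = 0.00454). The groups did not overlap in either comparison, as for 11% and 4.83% of all probes. The ratio was positive on 7 of 8 wt arrays, with the lowest at -0.22, and on 8 of 8 siScramble arrays. Of the spot values, 65 of 75 and 72 of 74 were positive.

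Both *Ncam1* calls were close to the threshold. In 6 of 16 alternatives the one against wt was lost, and in 10 of 16 the one against siScramble cells, while the ratio stayed positive in all of them (0.15 to 0.41 and 0.19 to 0.55). The 16 include loess alone and loess with Aquantile, which give the same ratios by construction. Leaving out replicate 2, 3 or 4 lost both calls. The dye moved the size here too, with 0.41 and 0.55 for si*Pax8* in Cy5 and 0.15 and 0.19 for si*Pax8* in Cy3. The spots of the probe varied with a median SD of 0.0519 and 0.0709 within arrays of the 2 comparisons, less than the SD over replicates. The difference between the comparisons was -0.09, with an interval of -0.27 to 0.09 (adjusted p = 0.619).

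*Epcam* encodes an epithelial adhesion molecule that is cleaved at the membrane and can signal to the nucleus. Its probe A_44_P163242 was dim: it was well above background in si*Pax8* cells on 7 of 8 wt arrays and 6 of 8 siScramble arrays, and in wt or siScramble cells on none. Its log2 ratio was 0.22 ± 0.05 against wt (0.27, 0.15, 0.25 and 0.22; adjusted p = 0.000695) and 0.15 ± 0.06 against siScramble cells (0.18, 0.11, 0.10 and 0.22), which did not pass (adjusted p = 0.0251) but did with the replicate block (adjusted p = 0.00383). That block had no dye term and a negative correlation within replicates (-0.115), which narrows the error of a mean. It called 893 probes higher and 811 lower than in siScramble cells, where 499 and 368 passed without it. Since the controls were not above background, the change was also taken with a floor. The control took on each array the higher of its own signal and the lowest signal of any probe above background. The channels had loess and Aquantile normalization for this. On that scale, which is not that of the log2 ratios above, the measured means were 6.65 in si*Pax8* and 6.39 in wt cells. With the floor the excess in si*Pax8* cells was 1.18-fold. Against siScramble cells, where the ratio did not pass, the means were 6.62 and 6.49 and the excess was 1.08-fold. Neither is a minimum: on the same scale the gene *Fat2* averaged 6.63 in wt cells and was above background on 3 of 8 arrays. A control not above background could thus lie close to the si*Pax8* mean. Both are point values without an interval, so the spread over replicates is not in them. The call against wt cells was lost without replicate 3 (adjusted p = 0.00774) or replicate 4 (adjusted p = 0.0053), with the ratio at 0.22 in both. With the values of Agilent's software the log2 ratios were 2.39 and 1.23, so the size for this probe depends on the background subtracted.

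*Ctnnb1* encodes β-catenin, which links classical cadherins to α-catenin and also carries the Wnt signal, and neither of its probes passed in either comparison. A_44_P409339 had log2 ratios of 0.09 ± 0.06 against wt (adjusted p = 0.0843) and -0.06 ± 0.23 against siScramble cells (adjusted p = 0.765). A_44_P526933 had 0.08 ± 0.14 (adjusted p = 0.305) and -0.06 ± 0.18 (adjusted p = 0.723). The wide spread against siScramble cells came with replicate 3, whose siScramble level was the highest of the 4 at both probes, 8.64 (others 8.23, 8.25 and 8.38) and 11.47 (others 10.96, 11.03 and 11.17). Without that replicate the ratios were 0.04 and 0.01.

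Among the remaining cadherins, *Cdh22*, a classical type cadherin first described in pituitary and brain, was detected by A_44_P116532 in 32 of 32 channel readings. Its ratios were -0.09 ± 0.05 against wt (adjusted p = 0.0513) and -0.06 ± 0.03 against siScramble cells (adjusted p = 0.288). Its other probe, A_44_P454259, was not well above background in any of 32 readings. Neither were both probes of *Cdh13*, which encodes T-cadherin, a cadherin held by a lipid anchor without a cytoplasmic tail. The same was true of both probes of *Cdh17*, which encodes LI-cadherin of liver and intestine. For these 5 probes the arrays give no measure of a change; the ratios lay between -0.01 and 0.05 against wt and between -0.03 and 0.03 against siScramble cells, and 0 of 5 passed in limma in either comparison, with the lowest adjusted p at 0.405 and 0.638.

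**Figure D3:**
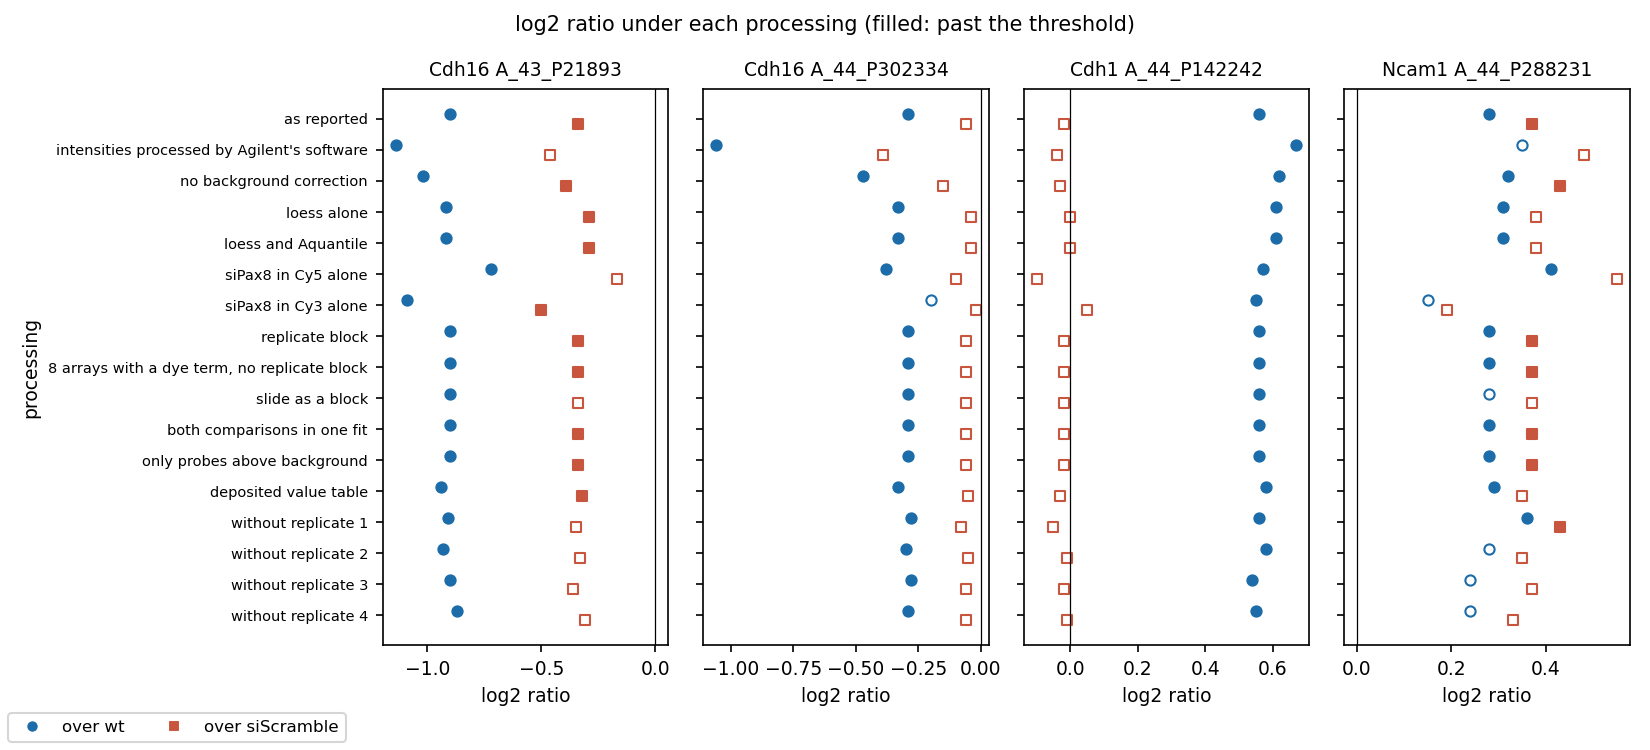
Log2 ratio of 4 member probes (x axis, a scale per panel) under the reported processing and 16 alternatives (y axis); circles are against wt, squares against siScramble cells, and filled symbols are past the threshold. *Cdh16* A_43_P21893 stays between -1.14 and -0.72 against wt cells, *Cdh1* between 0.54 and 0.67, and *Ncam1* stays above 0 but crosses the threshold under many of them.

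Other genes of these systems were taken from lists, in which a gene counted when each of its probes passed in one direction. By that count 7.26% of 8899 named genes were higher and 9.46% lower than in wt cells, and 1.67% and 1.31% than in siScramble cells. Of 16 measured cadherin superfamily genes outside the members, 3 were higher and 2 lower than in wt cells, with a median log2 ratio of 0.00 (all genes -0.01), and 0 passed against siScramble cells. *Pcdh7*, a protocadherin, had 0.42 ± 0.15, *Cdhr5*, an intestinal and renal microvillus cadherin, 0.29 ± 0.02, and *Cdh15*, M-cadherin of muscle, -0.22 ± 0.06. *Celsr3*, a seven-pass cadherin, was higher at 0.18 ± 0.05 (chosen after its values were seen). *Fat2*, a giant cadherin, had -0.21 ± 0.08 (adjusted p = 0.00191 in limma). It was above background in wt cells on 3 of 8 arrays and in si*Pax8* cells on none, so the size of its change was not measured. *Cdhr5* was above background in wt cells on 2 of 8 arrays.

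Of 17 catenin and adherens junction genes, all above background in every reading, 3 were higher and 0 lower than in wt cells, with a median of 0.03. *Ctnna1*, the α-catenin that binds β-catenin to actin, had 0.32 ± 0.12, *Pard3*, a polarity scaffold, 0.26 ± 0.03, and *Pvr*, a nectin-like receptor, 0.35 ± 0.01. Their ratios against siScramble cells were 0.15, 0.03 and 0.00, and none of these passed. *Jup*, plakoglobin, which can replace β-catenin at cadherins, was the 1 gene of the list higher than in siScramble cells, at 0.32 ± 0.04 (adjusted p = 0.000914; chosen after its values were seen), and had 0.30 against wt cells (adjusted p = 0.00882).

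Of 21 immunoglobulin-family adhesion genes, 2 were higher and 2 lower than in wt cells, and 1 was higher than in siScramble cells, with medians of -0.02 and 0.02. *Alcam*, a leucocyte and epithelial adhesion receptor, was higher in both comparisons, with 0.93 ± 0.11 (0.85, 0.83, 0.96 and 1.06) and 0.66 ± 0.13 (0.49, 0.63, 0.76 and 0.76). Its replicates were all above 0 in both, and the worse of its 2 probes had adjusted p of 2.66e-06 and 0.000983. *Icam1*, a receptor for leucocyte integrins, had 0.39 ± 0.09 against wt and 0.19 ± 0.03 against siScramble cells, where it did not pass. *Jam3*, of tight junctions, had -0.35 ± 0.06, and *L1cam*, a neural adhesion molecule, -0.25 ± 0.03.

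Of 8 measured genes for partners and polysialylation of Ncam1, 1 was higher and 1 lower than in wt cells. *Prnp*, the prion protein, which binds Ncam1, was higher in both comparisons, at 0.54 ± 0.11 and 0.43 ± 0.05. *St8sia2*, a polysialyltransferase that modifies Ncam1, had -0.31 ± 0.09 against wt and -0.20 ± 0.06 against siScramble cells, the latter not past (adjusted p = 0.0117). *Fgfr1*, a growth factor receptor that Ncam1 can engage, was higher than in siScramble cells at 0.44 ± 0.05 but had -0.06 against wt cells (chosen after its values were seen). The median of the list was -0.06 and 0.00.

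Of 13 genes for E-cadherin repressors and mesenchymal proteins, 3 were higher and 1 lower than in wt cells, with a median of 0.06. *Vim*, the mesenchymal intermediate filament, had 0.56 ± 0.17 and 0.25 ± 0.05 in the 2 comparisons, and *S100a4*, a calcium-binding protein of motile cells, 0.29 ± 0.12 and 0.92 ± 0.10, both past in each. *Zeb2*, a repressor of *Cdh1*, was higher at 0.26 ± 0.12 than in wt cells. *Tcf3*, another factor that can repress *Cdh1*, had -0.32 ± 0.06. *Fn1*, fibronectin, was the other gene higher than in siScramble cells (0.44 ± 0.08; chosen after its values were seen). Of 6 measured epithelial factors, 0 passed with every probe in limma, and 1, *Klf5*, had a probe past in each comparison (chosen after its values were seen).

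The list of Epcam partners, its cleavage and cadherin shedding had 20 measured genes. *Fhl2*, which binds the cleaved tail of Epcam, had 0.66 ± 0.01 and 0.41 ± 0.04 and was the 1 gene of the list past against siScramble cells. *Psen2*, of the γ-secretase complex, was higher than in wt cells at 0.35 ± 0.09, and *Furin* and *St14*, both proteases, had -0.27 ± 0.08 and -0.32 ± 0.12. Of 13 genes of the β-catenin destruction complex and of Wnt targets, 2 were higher than in wt cells, the cell cycle genes *Ccnd1* (0.36 ± 0.05) and *Myc* (0.24 ± 0.04), and 0 passed against siScramble cells with every probe in limma, with 0.39 and 0.23 there. The medians of these lists were 0.01 and 0.03 against wt cells.

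**Figure D4:**
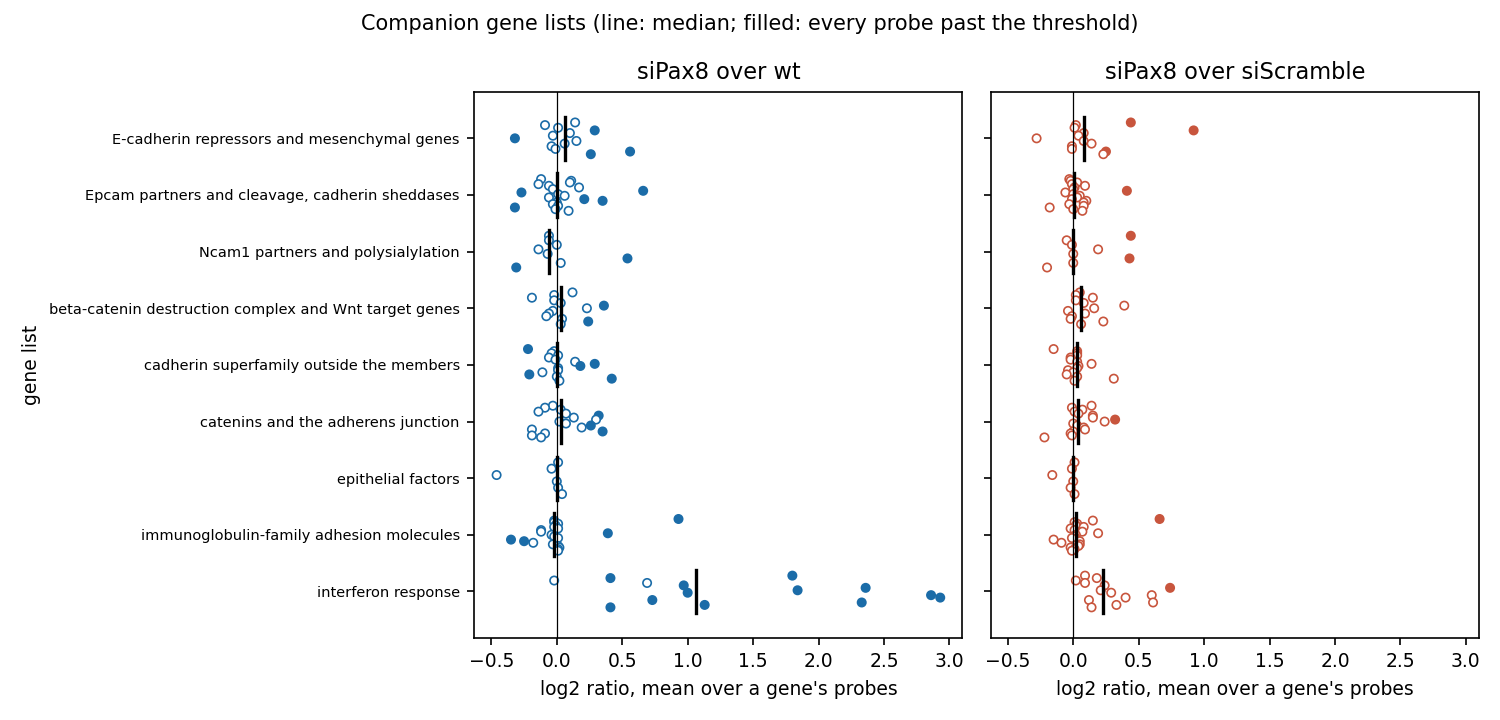
Log2 ratio (x axis) of the measured genes of 9 lists (y axis) against wt (left) and siScramble cells (right); each point is a gene, filled when every probe passed, and the black line is the list's median. The interferon response genes lie to the right against wt cells (median 1.07) and less so against siScramble cells (median 0.22), whereas the medians of the 8 adhesion lists lie between -0.06 and 0.08.

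Interferon response genes moved with the comparison against wt cells, in which *Cdh1* was higher. Of 14 measured, 12 were higher than in wt cells, with a median of 1.07, and 1, *Irf7*, was higher than in siScramble cells, with a median of 0.22. *Oas1a* had 2.93 ± 0.44 and 0.40 ± 0.29, *Irf7* 2.36 ± 0.09 and 0.74 ± 0.12, *Irf9* 1.84 ± 0.19 and 0.21 ± 0.16, and *Cxcl10* 1.80 ± 0.21 and 0.09 ± 0.19 in the 2 comparisons. Their part in the adhesion genes' values was not tested. Many, but not all, markers of other cell types gave little signal. In the wt comparison, of 3 endothelial, 5 fibroblast, 3 leucocyte, 4 neuronal and 7 C cell genes measured, 3, 4, 1, 3 and 4 were above background in no reading, among them the endothelial *Pecam1*, the fibroblast *Dcn*, the neuronal *Snap25* and the C cell gene *Calcb*. The fibroblast *Col1a2*, *Cd68* and the C cell genes *Calca* and *Ret* were above background in all 16. *Ret*, read by 3 probes, had mean ratios of -0.09 against wt and -0.16 against siScramble cells. Not all of its probes passed, and its lowest adjusted p in limma was 0.000307 and 0.00113. The macrophage gene *Cd68* was higher than in wt cells at 0.30 ± 0.12, with 0.00 against siScramble cells.

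By the root mean square difference over the 8 replicate log2 ratios of both comparisons, among 8890 named genes, *Acta1*, *Ier3*, *Idi1*, *Sgpl1* and *Dnai2* were most like the mean of the *Cdh16* probes (differences 0.04 to 0.0693), with mean ratios of -0.66 to -0.54 against wt and -0.25 to -0.20 against siScramble cells. Neither *Cdh16* probe had ratios in these ranges by itself: A_43_P21893 had -0.90 and -0.34, and A_44_P302334 had -0.29 and -0.06. *Adar*, *Eno3*, *Clk4*, *Nrg1* and *Ftl1* were most like *Cdh1* (0.0801 to 0.0995), with 0.48 to 0.58 and -0.04 to 0.08. *Adar* encodes an RNA-editing enzyme. In the GRCr8 assembly *Cdh16*, *Cdh1* and *Cdh13* are on chromosome 19. Of the 3 nearest protein-coding genes on each side of *Cdh16*, *Rrad*, *Pdp2* and *Nae1* were measured and none passed, with ratios of 0.00 to 0.04 against wt cells. Of those around *Cdh1*, *Zfp90* was higher than in wt cells (0.28 ± 0.08; adjusted p = 0.000381), and *Has3* had -0.01 ± 0.08.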

How the data were processed

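PCCl3 cells were profiled on 16 two-colour Agilent arrays. The authors deposited a scanner file per array with mean spot intensity and median background (Feature Extraction 10.1.1.1 per the file headers; the methods name an earlier version) and a table of normalized log2 ratios per array. Its columns had medians of -0.00011 to 0.0068 and correlated from -0.999 to -0.993 with the ratios computed here, so the deposited log2 table holds control over si*Pax8*; it served as an alternative. Intensities processed by Agilent's software were another alternative.

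Intensities went through limma 3.58.1 in R 4.3.3: normexp background correction (offset 50), loess within arrays with weight 0 for control and outlier spots, and quantile normalization between arrays. The methods name loess, quantile normalization and limma. Spots of a probe and dye-swapped arrays of a replicate were averaged, since the labels give them 1 number. Deviations of such arrays correlated from 0.12 to 0.47 against wt and 0.33 to 0.58 against siScramble cells. For replicate 2 against wt cells the 0.12 was below the highest correlation with another number, 0.2. lmFit and eBayes were applied to 4 values per probe, with Benjamini-Hochberg adjustment over 41012 probes and the study's threshold of 0.005. The difference between comparisons was tested over 8 values. Intervals are 95% intervals from the fit. In simulated data 100 of 41012 probes were changed by a log2 of 1 and 100 by 0.5, with independent normal noise. The change of 1 was recovered for 98% (wt) and 97% (siScramble) of changed probes and that of 0.5 for 71% and 68%, with 0 false calls. Fewer probes were changed there than passed in the data, and changes under 0.5 were not simulated. These rates therefore do not carry over to the smaller member ratios. Symbols came from RefSeq (GRCr8) through the probes' accessions (10768 probes named); coordinates were not used, as the array design is on another build. Samples were grouped by their titles and dye labels. Biological replicates are as labelled; if they share a culture, p-values measure only technical spread.

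Genes named are every member, *Pax8*, the likeness genes and up to 4 genes per list with the smallest adjusted p against wt cells; 1 further result is not reported here. Members and lists were chosen with earlier results of these data known. Probe brightness and 4 replicates limit the precision. The study's sequencing, reporter and PCR data were not analysed here.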

Additional observations from a re-analysis of the deposited data

Results flagged for a closer look

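Within groups of 4 replicates, 2 values stood apart from the others by Dixon's criterion, which by chance marks about 1 in 20 groups. The *Cdh22* ratio of probe A_44_P116532 was -0.03 in replicate 2 against wt cells, where the others were -0.12, -0.11 and -0.12. The *Cdh16* ratio of the dim probe A_44_P302334 was -0.01 in replicate 1 against siScramble cells, where each of the others was -0.08.

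Between the comparisons, 3 probes had different ratios by a test of the difference in limma. *Cdh1* differed by 0.58 (0.56 against wt, -0.02 against siScramble cells; positive in 4 of 4 and 1 of 4 replicates). *Cdh16* differed by -0.56 at A_43_P21893 (-0.90 and -0.34) and by -0.23 at A_44_P302334 (-0.29 and -0.06), with every replicate negative in both comparisons at both probes.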

How the results depend on the processing

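Over 16 alternatives (15 for the difference), the ratios of the 9 member probes above background in any reading kept their sign except for *Cdh1* against siScramble cells (0.00 with loess alone or Aquantile, 0.05 with si*Pax8* in Cy3 alone), *Cdh22* A_44_P116532 (0.02 with Cy5 alone) and *Ctnnb1* against siScramble cells (0.02 with Cy3 alone at both probes; -0.13 to 0.04 at A_44_P409339 and -0.13 to 0.01 at A_44_P526933 without 1 replicate, positive without replicate 3); none had passed. Called ratios kept their call in 138 repeats and lost it in 35. Loess alone and loess with Aquantile give the same ratios by construction, so the Aquantile setting adds nothing to any count over alternatives. Probes higher than in wt cells (4) numbered 2 with Agilent's values or Cy3 alone, 3 with the slide as a block, and 2 to 4 without 1 replicate; probes lower (2) numbered 1 with Cy3 alone. Probes higher than in siScramble cells (1) numbered 0 with Agilent's values, loess alone, Aquantile, Cy5 alone, Cy3 alone, the slide as a block or the deposited table, 2 without background correction, with the replicate block or with a dye term, *Epcam* being the added probe, and 0 to 1 without 1 replicate. Probes lower (1) numbered 0 with Agilent's values, Cy5 alone or the slide as a block, and 0 without any 1 replicate. For the difference, probes higher (1) numbered 2 with Agilent's values; probes lower (2) numbered 1 with Agilent's values, Cy3 alone, the slide as a block or without any 1 replicate. The cause was not tested. The replicate block changed no other call of a member. Within a comparison it was a correlation between arrays of a replicate (-0.124 against wt and -0.115 against siScramble cells). For the difference it was a term for each replicate number, which is another model. Between the comparisons, deviations with the same number correlated at 0.39, 0.17, 0.04 and 0.57, the si*Pax8* samples being shared and the controls not. For replicate 3 the highest correlation with another number was 0.41, above its own 0.04. The block changed the call of the *Pax8* difference of -0.32 (adjusted p in limma 0.183 without and 0.00171 with it). Low signal over background limits *Epcam*, A_44_P302334 and 5 probes never above background.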
